A study of Mus musculus with 6 samples.

Results

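The genes described here make, copy, protect and remove DNA methylation in mouse embryonic stem cells. They were taken as the rows whose symbol is Dnmt1, Dnmt3a, Dnmt3b, Dnmt3l, Uhrf1, Tet1, Tet2, Tet3, Tdg or Zfp57. All 10 were found among the 23238 gene symbols of the count files. The EWS-OCT-4 stable cell line, which carries EWS-OCT4A joined to GFP, was set against the EGFP stable cell line. EWS is an RNA-binding protein known from fusions in Ewing sarcoma, and OCT-4 is a transcription factor of stem cells. Both lines were derived from embryonic stem cells of strain 129/Ola that the labels name Niwa, both were grown with LIF, and both were given doxycycline at 1 µg/ml to lower their own OCT-4. Each line gave 3 libraries of 3′ RNA tags, and whether they came from separate cultures or the lines from single clones is not stated, so p-values measure the spread between these libraries, which may be technical. No library without doxycycline was analysed here, so "rose" and "fell" below mean higher and lower in the EWS-OCT-4 line than in the EGFP line.

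In mammals a methyl group is placed on cytosine mainly where cytosine is followed by guanine (CpG). DNMT3A and DNMT3B place new methyl groups, DNMT3L has no enzyme activity of its own and helps them, and DNMT1, led by UHRF1 to newly copied DNA, restores the mark after replication. TET1, TET2 and TET3 oxidise methylated cytosine, and the glycosylase TDG cuts out the most oxidised forms so that repair can put back a plain cytosine. ZFP57 is a zinc finger protein that binds methylated imprinting control regions and helps keep their methylation in stem cells and the early embryo. Mouse embryonic stem cells are known for high Tet1 and Tet2 and little Tet3, and for surviving without any of the DNA methyltransferases.

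The libraries held 10978025 to 12281444 counts in the EWS-OCT-4 line and 13239383 to 14935887 in the EGFP line. Levels are given as CPM (counts scaled to a common library size, here with TMM factors), and before those factors 1 count stood for 0.06695 to 0.09109 CPM. Each transcript gives tags at its 3′ end, so levels were not divided by gene length. Pou5f1, the gene of OCT-4, chosen after its values were seen, had 18, 21 and 36 counts in the EWS-OCT-4 libraries, against 5, 13 and 10 counts in the EGFP libraries (log2 difference 1.76, SE 0.51, edgeR adjusted p = 0.0108, and 0.0542 without EWS-OCT-4 replicate 3). Whether its tags come from the fusion cannot be told. The label embryonic stem cell was checked against markers. The 15 pluripotency markers summed to 9355 to 9790 CPM in the EWS-OCT-4 libraries and 1702 to 1986 CPM in the EGFP libraries, and the 19 trophoblast markers to 293 to 331 CPM in EWS-OCT-4 and 5729 to 6494 CPM in EGFP. Of the trophoblast markers, 4 had no count in any EWS-OCT-4 library, and none was without counts in all EGFP libraries. All 15 pluripotency markers rose and all 18 tested trophoblast markers fell, by the edgeR test described below. Of all genes tested, 33.3% rose and 34.1% fell. Single genes weigh heavily in the smaller sums. Klf5 averaged 1222 CPM in EGFP and Tfap2c 240 CPM in EWS-OCT-4, both named after their values were seen. By these markers the EGFP libraries go against the label, and the part of this in the values of the 10 genes was not tested. Markers of primitive endoderm (13 genes) summed to 205 to 279 CPM in EWS-OCT-4 and 576 to 793 CPM in EGFP, and those of fibroblasts (12 genes) to 28.52 to 35.65 CPM in EWS-OCT-4 and 15.98 to 19.74 CPM in EGFP. Within these sums single genes moved in opposite directions. Among fibroblast markers Thy1 averaged 17.9 CPM in EWS-OCT-4 and 0.636 CPM in EGFP, Postn 0 CPM in EWS-OCT-4 and 9.15 CPM in EGFP, and 5 of 8 tested did not pass. Among primitive endoderm markers 6 of 8 tested fell, while Lama1 and Gata4 rose by 4.07 and 3.80 on the log2 scale. Gata4, named after its values were seen, was at a low level (2.08 ± 0.213 CPM in EWS-OCT-4 and 0.143 ± 0.149 CPM in EGFP). Markers of primed epiblast (13 genes) summed to 472 to 628.5 CPM in EWS-OCT-4 and 90.6 to 120.2 CPM in EGFP. In bulk RNA, a change in the number of cells of a type and a change in RNA per cell cannot be told apart. The library numbered 3 of each line stood apart from numbers 1 and 2, as chi-square tests of their counts over genes gave 32 and 32.3 times the degrees of freedom in the EWS-OCT-4 line and 23.7 and 25 in the EGFP line. Numbers 1 and 2 gave 4.21 in EWS-OCT-4 and 3.96 in EGFP. Values without these libraries are therefore given beside the results that move.

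CpG is the site these enzymes act on, and the sequences before the RefSeq starts of Tet1, Tet2, Tet3, Zfp57 and Uhrf1, which rose or fell by at least 2-fold, hold very different numbers of it. They are shown with every CpG in capitals, 5′ to 3′, as RefSeq sequence of GRCm38.p6. Each is the longest stretch, within the 250 bases before the first RefSeq start, that no GENCODE M21 exon covers. GENCODE M21 places the outer ends of Tet1, Tet2 and Tet3 farther upstream, so the windows of these genes lie inside their GENCODE loci.
Tet1, chr10:62887325-62887412, minus strand: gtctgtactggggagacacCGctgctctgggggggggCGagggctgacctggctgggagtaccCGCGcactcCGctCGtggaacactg
Tet2, chr3:133544391-133544640, minus strand: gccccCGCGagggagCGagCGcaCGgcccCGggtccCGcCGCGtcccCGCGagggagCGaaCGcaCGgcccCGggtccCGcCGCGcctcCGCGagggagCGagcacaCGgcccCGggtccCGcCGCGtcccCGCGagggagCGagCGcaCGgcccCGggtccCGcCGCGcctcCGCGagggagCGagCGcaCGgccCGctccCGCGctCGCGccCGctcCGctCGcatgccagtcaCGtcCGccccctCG
Tet3, chr6:83441679-83441754, minus strand: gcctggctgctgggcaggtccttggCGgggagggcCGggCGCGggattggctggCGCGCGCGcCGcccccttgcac
Zfp57, chr17:37000913-37001162, plus strand: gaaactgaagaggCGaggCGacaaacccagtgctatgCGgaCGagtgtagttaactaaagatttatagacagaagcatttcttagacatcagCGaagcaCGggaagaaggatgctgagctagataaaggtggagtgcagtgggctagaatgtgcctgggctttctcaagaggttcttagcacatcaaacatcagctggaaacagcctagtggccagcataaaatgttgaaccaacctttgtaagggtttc
Uhrf1, chr17:56303087-56303320, plus strand: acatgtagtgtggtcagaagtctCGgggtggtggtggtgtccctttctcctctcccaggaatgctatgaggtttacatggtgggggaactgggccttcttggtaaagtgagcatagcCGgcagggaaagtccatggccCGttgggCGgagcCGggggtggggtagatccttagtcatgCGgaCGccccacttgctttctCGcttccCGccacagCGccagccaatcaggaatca
Over the full 250 bases before the start, Tet2 had 51 CpG, Tet3 17 and Tet1 15, against a median of 6 over 32851 promoter windows of that length. Zfp57 has 3 annotated starts, with 6, 7 and 3 CpG, and Uhrf1 has 2, with 10 and 30 CpG. The 3 starts of Dnmt1 had 2, 7 and 26 CpG, those of Dnmt3a 38, 40 and 15, and those of Dnmt3l 5, 4 and 3, while Dnmt3b had 21 and Tdg 19. Tags at the 3′ end do not say which start was used. No methylation was measured in this series.

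All 10 genes were abundant enough to be tested, and 9 passed the test, with 5 higher and 4 lower in the EWS-OCT-4 line. Passing means an adjusted p under 0.05 by edgeR's quasi-likelihood test with Benjamini-Hochberg adjustment over 13467 genes. Of all genes tested, 67.4% passed, 33.3% higher and 34.1% lower, so most genes of any kind differed between these lines, and 9 of 10 is to be read against that share. The values of the lines did not overlap for 9 of the 10 genes, against 72.7% of all genes tested. A change of at least 2-fold was called for 5 of the 10, against 45.4%, and one of at least 4-fold for 2 of the 10, against 22.8%. Tet1 and Zfp57 rose most, Uhrf1, Tet2 and Dnmt3l rose less, Tet3 fell most, and Dnmt1, Dnmt3a and Dnmt3b fell by less than 2-fold.

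**Figure D1:**
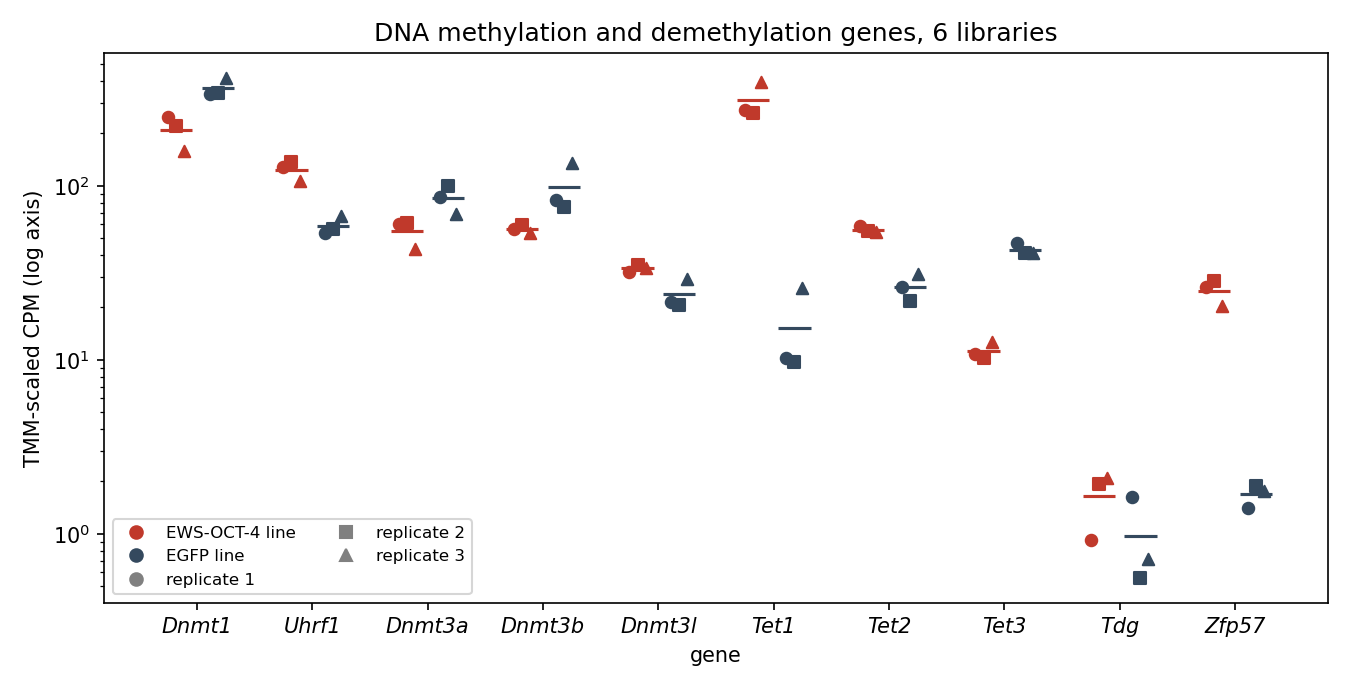
TMM-scaled CPM (log axis) of the 10 genes in each library, with the EWS-OCT-4 line in red and the EGFP line in dark blue. Horizontal lines are means of 3 libraries and marker shapes give the replicate number. Tet1 lies between 261 and 395 CPM in EWS-OCT-4 and between 9.74 and 25.7 CPM in EGFP, while the values of Tdg overlap.

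Tet1, an oxidase expressed in naive and primed pluripotent cells, had 272.7, 261 and 395 CPM in the EWS-OCT-4 libraries, against 10.2, 9.74 and 25.7 CPM in the EGFP libraries. The lowest EWS-OCT-4 library lay far above the highest EGFP library, and in each line the library numbered 3 was the high one. The means were 309.6 ± 74.4 CPM in EWS-OCT-4 and 15.2 ± 9.10 CPM in EGFP (SD, n = 3 each), with a log2 difference of 4.34 (SE 0.37, edgeR adjusted p = 4.21e-06), or 20.2-fold. Without EGFP replicate 3 the difference was 4.95, and in the libraries numbered 1 and 2 alone it was 4.76. EGFP replicate 3 stood 1.35 above replicates 1 and 2 of its line for Tet1 on the log2 scale. That library also had the highest sum of pluripotency markers of its line (1986 CPM, against 1702 and 1703) and the lowest of trophoblast markers (5729 CPM, against 6494 and 6409), and the part of this in the Tet1 value was not tested.

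Tet3, the family member that dominates in the egg and zygote and in many differentiated cells, changed the other way. It had 10.8, 10.2 and 12.6 CPM in the EWS-OCT-4 libraries, against 46.8, 41.1 and 41.1 CPM in the EGFP libraries. The libraries of each line lay close together and the lines did not overlap. Tet3 averaged 11.2 ± 1.23 CPM in EWS-OCT-4 and 43.0 ± 3.29 CPM in EGFP (SD, n = 3 each), a log2 difference of -1.94 (SE 0.16, edgeR adjusted p = 3.58e-06), which is 3.83-fold lower.

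Tet2 rose about as much as Uhrf1. It had 58.4, 54.9 and 54.0 CPM in the EWS-OCT-4 libraries, against 26.2, 21.7 and 31.3 CPM in the EGFP libraries. The lines did not overlap, and the log2 difference was 1.08 (SE 0.16, edgeR adjusted p = 0.000217), or 2.11-fold.

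With these changes the make-up of the TET tags differed between the lines. Tet1 gave 79.8%, 80.0% and 85.6% of all Tet1, Tet2 and Tet3 tags in the EWS-OCT-4 libraries, against 12.3%, 13.4% and 26.2% in the EGFP libraries. The first EWS-OCT-4 share rests on 3711 tags (Wilson 95% interval 78.4 to 81.0%) and the first EGFP share on 1116 (10.5 to 14.3%), intervals that cover counting error only. Tet3 gave 3.15%, 3.14% and 2.72% in EWS-OCT-4 and 56.3%, 56.7% and 41.9% in EGFP. Tet2 gave 17.1%, 16.8% and 11.7% in EWS-OCT-4 and 31.5%, 29.9% and 31.9% in EGFP, so its share was lower in the EWS-OCT-4 line although its level was higher. The Tet1 share was 81.8 ± 3.28% in EWS-OCT-4 and 17.3 ± 7.73% in EGFP (SD, n = 3 each), a difference of 64.5 percentage points (2-sided exact permutation test, p = 0.10, the smallest that 3 against 3 can give). Summed over the family, TET tags stood at 342, 326 and 462 CPM in the EWS-OCT-4 libraries and 83.1, 72.5 and 98.2 CPM in the EGFP libraries, a ratio of means of 4.45 (2-sided exact permutation test, p = 0.10).

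**Figure D2:**
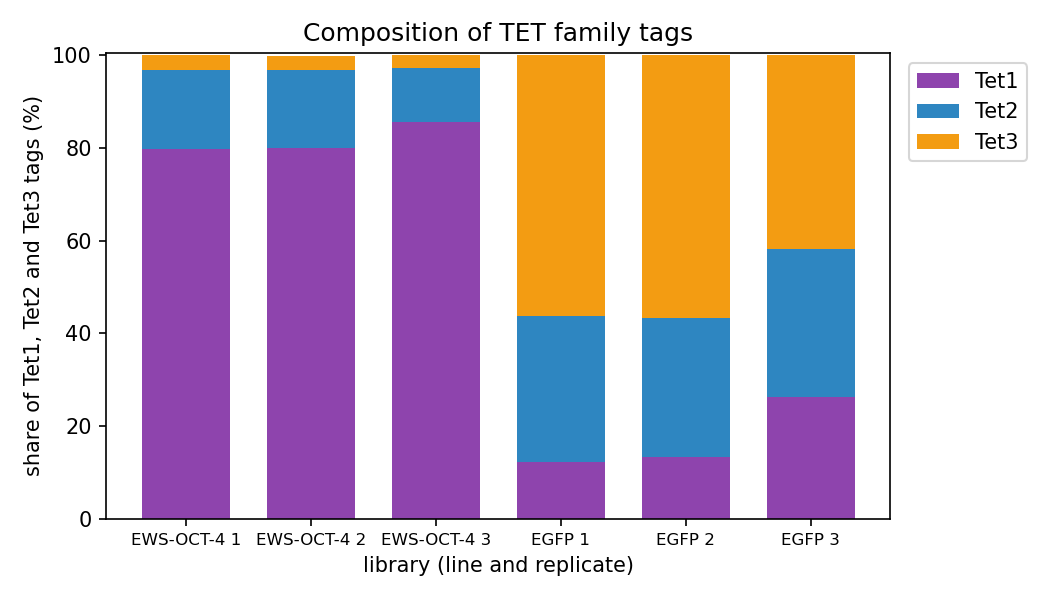
Share of Tet1, Tet2 and Tet3 among the tags of the 3 genes in each library, with the EWS-OCT-4 libraries on the left and the EGFP libraries on the right. Tet1 gives 79.8 to 85.6% in EWS-OCT-4 and 12.3 to 26.2% in EGFP, where Tet3 gives 41.9 to 56.7%.

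The maintenance pair moved in opposite directions. Dnmt1, which copies the mark, had 247 CPM in EWS-OCT-4 replicate 1, 222 in replicate 2 and 158 in replicate 3, against 339, 342 and 417 CPM in the EGFP libraries. The lines did not overlap, and the libraries numbered 3 were the lowest of the EWS-OCT-4 line and the highest of the EGFP line. The log2 difference was -0.81 (SE 0.17, edgeR adjusted p = 0.00185), or 1.75-fold lower, and it was -0.52 in the libraries numbered 1 and 2 alone. Uhrf1, which recruits DNMT1 to half-methylated CpG, had 128.5, 137 and 106 CPM in the EWS-OCT-4 libraries, against 53.3, 56.8 and 67.4 CPM in the EGFP libraries. It rose by 1.07 on the log2 scale (SE 0.15, edgeR adjusted p = 0.00012), or 2.09-fold, with no overlap. Of the Uhrf1 and Dnmt1 tags combined, a share chosen after its values were seen, Uhrf1 gave 34.2%, 38.1% and 40.3% in EWS-OCT-4 and 13.6%, 14.2% and 13.9% in EGFP (2-sided exact permutation test, p = 0.10).

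Uhrf1 is known to be expressed mostly in dividing cells, so genes of replication were read beside it. Of 25 replication licensing and S phase genes, 19 rose, 1 fell and 5 did not pass, so that 80% passed, against 67.4% of all genes tested. Their median log2 difference was 0.94, against 0.00 over all genes tested. Their summed level was 4423 to 4671 CPM in the EWS-OCT-4 libraries and 1758 to 2118 CPM in the EGFP libraries. Dnmt1, also known as a gene of replicating cells, was lower in the EWS-OCT-4 line. The part of replication in the Uhrf1 and Dnmt1 values was not tested. The partners of maintenance methylation included genes with larger rises than Uhrf1. Of 8 such partners, 6 rose and 2 fell (median 1.30). All of them passed, against 67.4% of all genes tested, with 33.3% higher and 34.1% lower. Hells, a remodelling helicase needed for DNA methylation at repeats, had 453 ± 16.1 CPM in EWS-OCT-4 and 63.0 ± 13.2 CPM in EGFP (SD, n = 3 each; log2 difference 2.84, SE 0.16, edgeR adjusted p = 2.53e-07). Its partner Cdca7 had 104.8 ± 29.5 CPM in EWS-OCT-4 and 24.6 ± 2.70 CPM in EGFP (log2 difference 2.09). The replication ligase gene Lig1 and the sliding clamp gene Pcna rose by 2.29 and 1.52 on the log2 scale. The histone H3 lysine 9 methyltransferase genes Ehmt1 and Ehmt2, named after their values were seen, were the 2 that fell, by 0.57 and 0.63.

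The motif TTCCCGCC, a form of the site for E2F factors, was searched on both strands of the 250 bases before each start. Among the 10 genes it was found only for Uhrf1, starting 48 bases before its first start, and it is held by 1.86% of the 32851 windows. Here a gene counts if any of its starts holds the motif, while the percentages are of single windows. Genes with several starts thus have a higher chance to be counted, and the percentages are not their expected rate. Of the 20 replication genes with a window, 2 held it. The octamer ATGCAAAT, the core sequence that OCT-4 binds, was found before none of the 10 genes, against 1.60% of all windows. Motifs of ESRRB (TCAAGGTCA), KLF (GGGTGTGG) and ETS factors (CCGGAAG) were also found before none of the 10, against 0.387%, 3.20% and 6.91% of all windows. At such rates, finding none among so few windows says little. The site AGATAAG of GATA factors was found for Zfp57 (2.74% of windows), the TFAP2 site GCCNNNGGC for Dnmt1, Dnmt3a and Tdg (13.7%), the hexamer TGCCGC bound by ZFP57 for Dnmt3a and Tet3 (8.68%), and CCAAT for Dnmt1, Uhrf1, Tet3, Tdg and Zfp57 (33.8%), some of these only at a later start.

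Both de novo enzymes fell. Dnmt3a had 60.5, 61.3 and 43.1 CPM in the EWS-OCT-4 libraries, against 86.7, 100.1 and 68.5 CPM in the EGFP libraries. In each line the library numbered 3 was the lowest, and the lines did not overlap. The log2 difference was -0.63 (SE 0.19, edgeR adjusted p = 0.0125), or 1.55-fold lower. Without EGFP replicate 2 it was -0.51 and the edgeR adjusted p was 0.0636, so this call was lost.

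Dnmt3b had 56.4, 59.3 and 53.5 CPM in the EWS-OCT-4 libraries, against 82.7, 75.6 and 135 CPM in the EGFP libraries. The EWS-OCT-4 libraries lay within a narrow band, while EGFP replicate 3 stood well above the other EGFP libraries, by 0.77 on the log2 scale. The log2 difference was -0.79 (SE 0.21, edgeR adjusted p = 0.00669), or 1.73-fold lower. It was -0.43 in the libraries numbered 1 and 2 alone, where the call held (edgeR adjusted p = 0.000397).

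The shares of the methyltransferases were also compared, in a design of 3 against 3 libraries that cannot give a p under 0.10 and so cannot show that they were alike. Dnmt3b gave 48.2%, 49.2% and 55.4% of Dnmt3a and Dnmt3b tags in the EWS-OCT-4 libraries, against 48.8%, 43.0% and 66.4% in the EGFP libraries. The difference of -1.81 percentage points was smaller than the spread between the EGFP libraries (2-sided exact permutation test, p = 0.90), and without EGFP replicate 3 it was 5.01. Dnmt1 gave 64.9 ± 2.94% of Dnmt1, Dnmt3a and Dnmt3b tags in EWS-OCT-4 and 66.6 ± 0.538% in EGFP (SD, n = 3 each), a difference of -1.73 percentage points (2-sided exact permutation test, p = 0.40). That difference was -3.23 without EWS-OCT-4 replicate 1 (exact p = 0.10), -0.293 without EWS-OCT-4 replicate 3 (exact p = 0.80) and -0.0309 in the libraries numbered 1 and 2 alone (exact p = 1). Summed over these 3 enzymes, tags stood at 364, 342.5 and 255 CPM in the EWS-OCT-4 libraries and 508, 518 and 620 CPM in the EGFP libraries, with no overlap (2-sided exact permutation test, p = 0.10).

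Dnmt3l, the cofactor without activity, had 31.9, 35.2 and 33.8 CPM in the EWS-OCT-4 libraries, against 21.6, 20.6 and 29.0 CPM in the EGFP libraries. It rose by 0.50 on the log2 scale (SE 0.17, edgeR adjusted p = 0.0256), or 1.41-fold, while the enzymes it binds fell. Leaving out single libraries ended the call in 3 of 6 fits, with edgeR adjusted p = 0.0757 without EWS-OCT-4 replicate 2, 0.11 without EGFP replicate 1 and 0.118 without EGFP replicate 2. Prdm14, which is known to hold down Dnmt3b and Dnmt3l in mouse stem cells and was chosen here after its values were seen, had 115, 103 and 95 counts in the EWS-OCT-4 libraries and 0, 2 and 3 in the EGFP libraries (log2 difference 6.22, SE 0.54). Without EGFP replicate 3 its difference was 6.83. Dnmt3b fell and Dnmt3l rose beside it, and the part of Prdm14 in their values was not tested. Of the relatives of these enzymes, Trdmt1, which methylates transfer RNA, had 4.65 ± 1.15 CPM in EWS-OCT-4 and 1.32 ± 0.541 CPM in EGFP, and the UHRF1 paralogue gene Uhrf2 had 50.9 ± 9.43 CPM in EWS-OCT-4 and 31.4 ± 4.47 CPM in EGFP (SD, n = 3 each). Both rose, by 1.81 and 0.70 on the log2 scale. Dnmt3c was not analysed here.

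**Figure D3:**
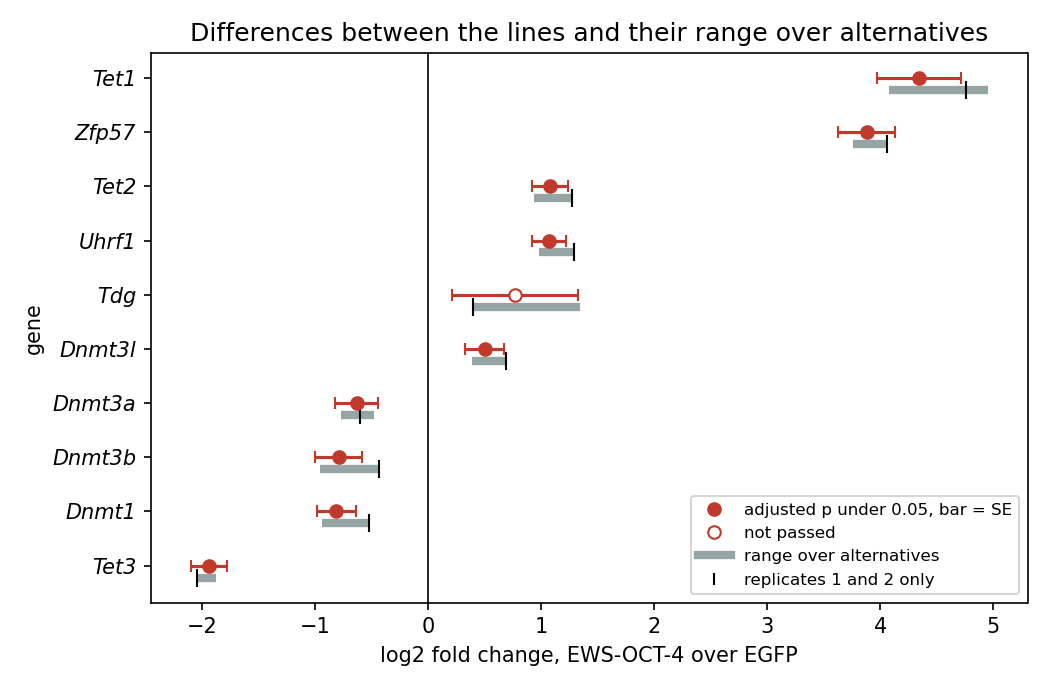
Log2 fold change of EWS-OCT-4 over EGFP for the 10 genes, with bars of 1 SE. Grey bands give the range over 15 or 16 alternative fits and black ticks the value in replicates 1 and 2 alone. Tet1 and Zfp57 lie at 4.34 and 3.88, Tet3 at -1.94, no band crosses 0, and Tdg (0.77, open point) did not pass the test.

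Zfp57, the guardian of imprints, had 26.4, 28.4 and 20.3 CPM in the EWS-OCT-4 libraries, against 1.42, 1.89 and 1.75 CPM in the EGFP libraries. The libraries of the lines lay far apart, on 836 counts in EWS-OCT-4 and 73 in EGFP. The log2 difference was 3.88 (SE 0.25, edgeR adjusted p = 5.65e-07), or 14.7-fold. Of 12 other tested genes linked to imprint protection, 7 rose, 3 fell and 2 did not pass (median 0.73), so that 83.3% passed, against 67.4% of all genes tested. Trim28, the corepressor that ZFP57 recruits, had 1077 ± 86.4 CPM in EWS-OCT-4 and 337 ± 40.8 CPM in EGFP (SD, n = 3 each; log2 difference 1.68, SE 0.13). Setdb1, the histone methyltransferase that acts with TRIM28, moved the other way, with 57.2 ± 9.35 CPM in EWS-OCT-4 and 220.5 ± 4.98 CPM in EGFP (log2 difference -1.95, SE 0.14). Arid4b, a chromatin protein linked to imprinting, fell by 1.65 on the log2 scale. Zfp42, the gene of the stem cell protein REX1 and also among the pluripotency markers, rose by 2.91. Dppa3, known for protecting maternal methylation in the zygote, was also picked with its values in view. It rose by 1.48 on the log2 scale at a low level (4.87 ± 0.217 CPM in EWS-OCT-4, against 1.73 ± 0.875 CPM in EGFP). Zfp445, a zinc finger gene that shares the task of ZFP57, did not pass the test (log2 difference 0.12, SE 0.18, edgeR adjusted p = 0.578), nor did Atf7ip (0.12, SE 0.17).

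Tdg was the gene that did not pass. It had 10, 21 and 25 counts in the EWS-OCT-4 libraries, against 22, 8 and 11 in the EGFP libraries, or 1.65 ± 0.638 CPM in EWS-OCT-4 and 0.971 ± 0.583 CPM in EGFP (SD, n = 3 each), and the lines overlapped. The log2 difference was 0.77 (SE 0.56, edgeR adjusted p = 0.244), and a difference of the size of Uhrf1 or Tet2 lies within 1 SE of it. At these counts such a difference was not detectable. A processed copy of the gene, Gm9855 (Tdg-ps2), is in the files with 3 counts in all, in EWS-OCT-4 replicate 2, and reads shared by the copies may have been lost or split, so the level of Tdg is uncertain. In GENCODE M21, Tdg (chromosome 10, 82629828 to 82650799) is also the only one of the 10 genes whose last kilobase is overlapped by an exon of another gene, Glt8d2 on the opposite strand, which had at most 11 counts in a library.

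The other members lie at these positions of GRCm38, the assembly of mm10: Tet1 on chromosome 10 (62804570 to 62908996), Dnmt3l on chromosome 10 (78041947 to 78063622), Tet2 on chromosome 3 (133463679 to 133545139), Tet3 on chromosome 6 (83362373 to 83459084), Dnmt1 on chromosome 9 (20907209 to 20959888), Dnmt3a on chromosome 12 (3806007 to 3914443), Dnmt3b on chromosome 2 (153649450 to 153687730), Zfp57 on chromosome 17 (37001163 to 37010635) and Uhrf1 on chromosome 17 (56303321 to 56323486).

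The order of the levels was different in the lines. In the EWS-OCT-4 line Tet1 was highest, followed by Dnmt1, Uhrf1, then Dnmt3b, Tet2 and Dnmt3a, whose libraries overlapped, then Dnmt3l, Zfp57, Tet3 and Tdg. In the EGFP line Dnmt1 was highest, followed by Dnmt3b and Dnmt3a, which overlapped, then Uhrf1, Tet3, and Tet2, Dnmt3l and Tet1, of which each overlapped its neighbour, and last Zfp57 and Tdg, which overlapped. Tet1 thus had rank 1 of 10 in EWS-OCT-4 and rank 8 in EGFP, and Tet3 rank 9 in EWS-OCT-4 and rank 5 in EGFP.

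The genes nearest in pattern to the 3 largest changes were found by the root mean square difference of log2 CPM, each gene centred over the 6 libraries, among 8920 genes that averaged 10 CPM or more. For Tet1 they were Nfib (0.177), Upp1 (0.213) and Mex3a (0.217), for Zfp57 Apobec3 (0.0834), Sox21 (0.212) and Rfx2 (0.215), and for Tet3 Pip4k2c (0.0475), Ubald1 (0.065) and Tspan9 (0.0709). Over 6 libraries in 2 groups this measure mostly follows the difference between the lines.

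Genes around these enzymes were read from 9 lists, of which 108 genes were tested and 81 passed (75.0%, against 67.4% of all genes tested), 52 higher and 29 lower. Of 8 tested partners and regulators of the TET proteins, 7 rose, none fell and 1 did not pass (median 1.16). Over all genes tested, 33.3% rose and 34.1% fell. This list includes Prdm14, described above, and Nanog, which is also among the pluripotency markers, so it is not independent of them. Nanog, a stem cell factor that binds TET1, had 547 ± 117 CPM in EWS-OCT-4 and 23.4 ± 13.1 CPM in EGFP (SD, n = 3 each; log2 difference 4.54, SE 0.36), or 5.29 in the libraries numbered 1 and 2 alone. The RNA-binding gene Lin28a, whose protein can bring TET1 to DNA, rose by 1.82, Cxxc5, a CXXC protein that binds TET2, by 1.29, and Sall4, a stem cell zinc finger gene, by 1.04 on the log2 scale. Ogt, a glycosyltransferase that binds the TET proteins, did not pass (log2 difference 0.20, SE 0.24, edgeR adjusted p = 0.473).

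Of 18 tested genes of base excision repair, deamination and active demethylation, 12 rose, 4 fell and 2 did not pass (median 1.09). This is 88.9% that passed, against 67.4% of all genes tested, of which 33.3% rose and 34.1% fell. Parp1, a sensor of DNA breaks, had 828 ± 98.2 CPM in EWS-OCT-4 and 91.3 ± 16.5 CPM in EGFP (SD, n = 3 each; log2 difference 3.18, SE 0.16, edgeR adjusted p = 1.6e-07). Neil2, a glycosylase of oxidised bases, rose by 4.03, and Apobec3, a cytidine deaminase gene known for restricting viruses, by 3.73 on the log2 scale. Gadd45g, a stress gene linked to repair-based demethylation, had 5, 1 and 4 counts in the EWS-OCT-4 libraries, against 1600, 1579 and 1422 in the EGFP libraries (log2 difference -8.45, SE 0.30, edgeR adjusted p = 2.28e-08).

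Of the 9 lists, that of methyl-CpG readers was the only one in which none rose. Outside that list, Uhrf1 and Zfp57, described above as binding half-methylated or methylated sites, rose. So did Mbd4 (0.79 on the log2 scale), counted with base excision repair and named after its values were seen. Of the 9 genes in the list of readers, 4 fell and 5 did not pass, and the median was -0.30. This is 44.4% that passed, against 67.4% of all genes tested, with 33.3% higher and 34.1% lower. Mbd2, which brings the NuRD repressor to methylated DNA, had 6.83 ± 1.27 CPM in EWS-OCT-4 and 55.4 ± 6.37 CPM in EGFP (SD, n = 3 each; log2 difference -3.02, SE 0.19, edgeR adjusted p = 5.84e-07). Mbd1, another methyl-CpG binding protein, had 4.04 ± 0.863 CPM in EWS-OCT-4 and 29.4 ± 7.55 CPM in EGFP (log2 difference -2.86, SE 0.27), and Zbtb33, which encodes the reader Kaiso, fell by 1.03 on the log2 scale. Mbd3, a NuRD subunit of the same family, did not pass (log2 difference 0.07, SE 0.16, edgeR adjusted p = 0.71). The list includes Mbd3, Mbd5 and Mbd6, family members that are not established readers of methylated CpG. Of these, Mbd5 fell by 1.20 on the log2 scale at a low level (1.71 ± 0.418 CPM in EWS-OCT-4, 3.94 ± 0.782 CPM in EGFP), and Mbd6 did not pass.

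**Figure D4:**
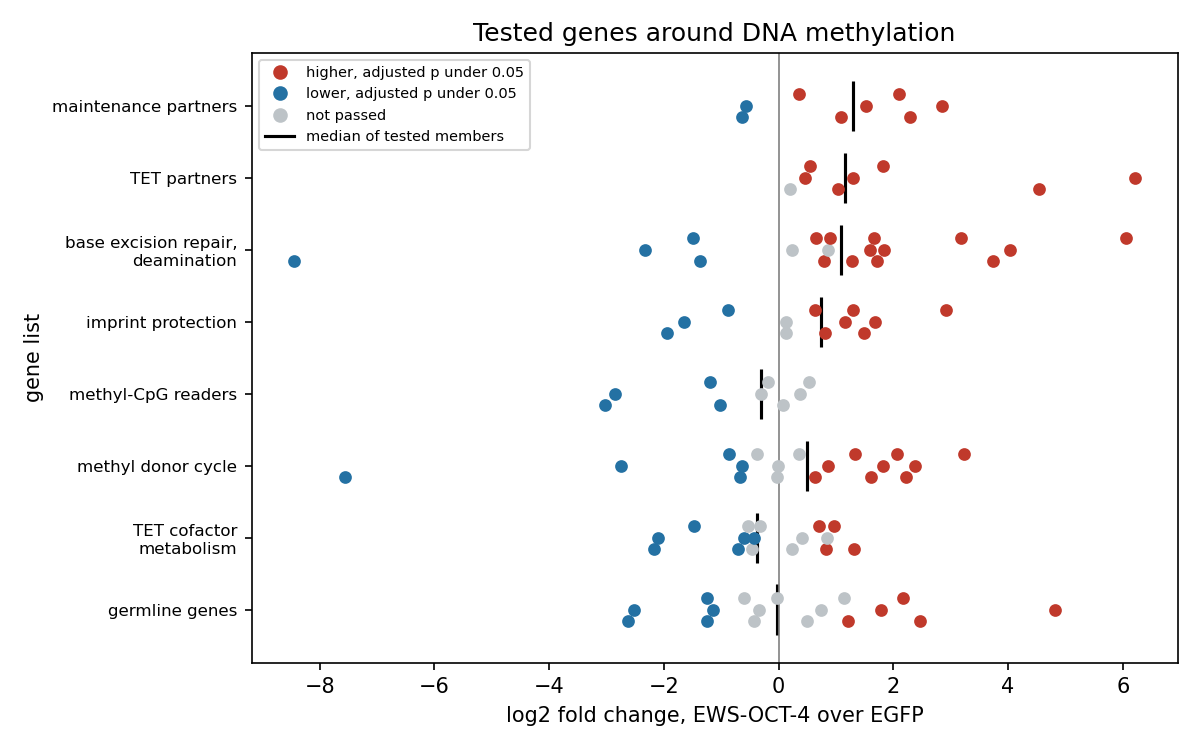
Log2 fold change of EWS-OCT-4 over EGFP of each tested gene in 8 lists around DNA methylation, with genes that passed in red (higher) or blue (lower), others in grey, and the median of each list as a black line. The medians run from 1.30 for maintenance partners to -0.38 for TET cofactor metabolism, and no gene of the methyl-CpG reader list is red.

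The supply of methyl groups and of TET cofactors was mixed. In the methyl donor cycle 9 of 18 tested genes rose, 5 fell and 4 did not pass (median 0.50), so that 77.8% passed, near the 67.4% of all genes tested. Ahcy, which clears the inhibitory by-product of methylation, had 125 ± 14.6 CPM in EWS-OCT-4 and 26.9 ± 5.77 CPM in EGFP (SD, n = 3 each; log2 difference 2.22, SE 0.18), and the mitochondrial folate gene Mthfd2 rose by 2.38 on the log2 scale. Bhmt, which remakes methionine from betaine, had 0, 3 and 1 counts in the EWS-OCT-4 libraries and 263, 270 and 527 in the EGFP libraries (log2 difference -7.56, SE 0.54), or -8.83 without EWS-OCT-4 replicate 2. Ahcyl2, a relative of Ahcy, fell by 2.74. Mat2a, which makes the methyl donor S-adenosylmethionine in most cells, did not pass (log2 difference 0.35, SE 0.17, edgeR adjusted p = 0.0897). Of 16 genes of α-ketoglutarate, succinate, fumarate and vitamin C, 4 rose, 6 fell and 6 did not pass (median -0.38), so that 62.5% passed. Slc23a2, a vitamin C transporter, fell by 2.11, Idh3b, a subunit of mitochondrial isocitrate dehydrogenase, fell by 1.48, Sdhb, of succinate dehydrogenase, rose by 1.32, and Idh1, the cytosolic enzyme that makes α-ketoglutarate, rose by 0.96 on the log2 scale.

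Germline genes whose promoters are known to be silenced by methylation in somatic cells showed no common direction. Of 21, 17 were tested, of which 5 rose, 5 fell and 7 did not pass (median -0.03). So 58.8% passed, near the 67.4% of all genes tested, with 33.3% higher and 34.1% lower. The germ cell gene Rpl10l, an intronless relative of the ribosomal protein gene Rpl10, was at 355 ± 55.7 CPM in EWS-OCT-4 and 12.5 ± 1.67 CPM in EGFP (SD, n = 3 each; log2 difference 4.82, SE 0.17), and reads shared with copies make it uncertain, as they do for the tubulin gene Tuba3a (2.47). Zcwpw1, a histone reader of meiosis, rose by 1.79 on the log2 scale. Sycp2, of the synaptonemal complex, fell by 2.53, or by 3.23 without EWS-OCT-4 replicate 3. Elf5, a trophoblast factor whose promoter is known to be methylated in embryonic stem cells and not in trophoblast, was chosen after its values were seen. It had 1, 3 and 0 counts in the EWS-OCT-4 libraries, against 155, 191 and 130 in the EGFP libraries (log2 difference -6.43, SE 0.57), or -7.70 without EWS-OCT-4 replicate 2 and -5.84 without EWS-OCT-4 replicate 3. Elf5 is also among the trophoblast markers, which fell together, and the part of methylation in its values was not tested.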

How the data were processed

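Libraries were prepared with the Lexogen QuantSeq kit for 3′ ends (500 ng of total RNA each), per the labels' protocols. The submitters' processing notes name Bowtie2, edgeR and mm10 without versions. Not given in the sources used here are the counting tool, annotation and use of strand. The authors deposited raw counts, whole numbers for each gene symbol, and no scaling was found in them. In all 23282 lines gave 23238 symbols after 35 repeated symbols were summed.

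In edgeR 4.0.16, with R 4.3.3, TMM factors were applied, and filterByExpr kept genes with a minimum count of 10 and total of 15. The lines were compared with the robust quasi-likelihood F test, 2-sided, over 13467 genes (threshold 0.05). A run on simulated data came first. Far fewer genes were changed in it than differed here, so it does not speak for change on this scale. The SE is the size of the log2 fold change divided by the square root of F. Shares of tags were compared by exact permutation over libraries. Alternatives were left-out libraries, a replicate block, other scalings and filters, limma 3.58.1, DESeq2 1.42.0, a 1.5-fold test and a threshold of 0.01.

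The members and lists were chosen with earlier results of these data known. In each list the called genes with the largest change and a mean of at least 5 CPM were named, up to 4, and in lists of at most 5 genes every member. Others are marked in the text, except genes named as not passing or as the few members that fell, which were also picked with their values in view. Marker lists are given as sums.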

Additional observations from a re-analysis of the deposited data

How the results depend on the processing

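The count of the 10 genes that passed was 9, and it ranged from 7 to 9 when single libraries were left out. It was 9 with DESeq2 size factors, library totals, unfiltered genes, genes averaging 10 CPM or more, limma-voom, DESeq2, the libraries numbered 1 and 2 alone and the replicate block, 7 at an adjusted p of 0.01, and 5 (4 higher, 1 lower) when tested against a 1.5-fold change. Against that threshold Dnmt1, Dnmt3a, Dnmt3b and Dnmt3l lost their calls (edgeR adjusted p = 0.0708, 0.303, 0.114 and 0.585). Uhrf1, Tet1, Tet2, Tet3 and Zfp57 kept direction and call under all 16 alternatives, and no gene of the 10 changed sign under any. The replicate block moved the edgeR adjusted p of Dnmt3a to 0.00227 and of Dnmt1 to 0.00295, and the 81 called genes of the other lists to 83. It changed no call among the 10 genes, and the numbers are not shown to pair the libraries, since the deviations of same-numbered libraries from their line means had correlations of 0.04, 0.05 and 0.15, and replicates 1 and 2 of EWS-OCT-4 each correlated best with the other's number (0.08). The Tet1 share differed by 62.0 to 68.9 percentage points when single libraries were left out. The difference in the Dnmt3b share changed sign without EGFP replicate 3 (5.01) and in the libraries numbered 1 and 2 alone (2.79), and ranged from -6.66 to 5.01 over left-out libraries. The other lists had 77 to 80 called genes over left-out libraries, and all genes together had 8122 to 9385. Of 921 refits of 58 other genes, 918 kept call and direction and 3 lost the call. These were Pou5f1 without EWS-OCT-4 replicate 3 (edgeR adjusted p = 0.0542) and at a threshold of 0.01, and Uhrf2 against a 1.5-fold change. Depth limits Tdg, Prdm14, Elf5 and Bhmt, whose counts in at least 1 line were few.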
